A study of Mus musculus with 6 samples.

Results

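The 10 genes described here were Sycp1, Sycp2, Sycp3, Syce2, Smc1b, Stag3, Rec8, Hormad1, Meioc and Meiob, which encode proteins of the meiotic chromosome axis, the synaptonemal complex, meiotic recombination and meiotic entry. They were taken by gene name from the deposited table, and all 10 were found among its 54532 genes. The table held 6 samples of whole testis from mice at 5 days postpartum (dpp), 3 labelled Ctrl and 3 labelled cKO. The cKO mice were Vasa-Cre Srsf1 Fl/del, a genotype in which Cre under the control of Vasa (Ddx4), a gene of germ cells, removes loxP-flanked exons of Srsf1 in the germ line. SRSF1 is a serine/arginine-rich splicing factor. Of the Ctrl mice the labels give only the word Ctrl, and neither their alleles and strain background nor any pooling of animals is given in the sources used here. The comparison asked what loss of Srsf1 from germ cells does to transcript levels.

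At meiotic entry, cohesin complexes that carry meiosis-specific subunits tie sister chromatids together along a protein axis. The axis proteins SYCP2, SYCP3 and HORMAD1 assemble on this cohesin, and SYCP1 with the central element proteins, SYCE2 among them, then joins homologous chromosomes as the synaptonemal complex. In male mice the first wave of meiosis begins after the first postnatal week, so testes at this age hold spermatogonia and their precursors but few or no spermatocytes. Several of these genes are held silent in somatic cells by DNA methylation and by a Polycomb complex that contains E2F6, MGA and MAX, and STRA8 with MEIOSIN raises their transcription at meiotic entry.

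Of the 10 genes, 8 were lower in every cKO than in every Ctrl sample, against 12.8% of the 16206 genes tested. For Syce2 and Meioc, counted among the 8, the gap was within counting error. The promoters are shown because factors named above bind short DNA motifs. RefSeq windows (GRCm38.p6, from 250 bases before to 50 after a transcript start, 300 in all) were matched by symbol for 9 of the 10 genes, all but Meiob. Both strands were searched for CACGTG, the E-box bound by MAX-containing dimers, for TCCCGC, a core of the E2F site, and for CNCCTCAG, a motif of STRA8 and MEIOSIN. CACGTG stood in windows of 5 of the 9 genes (Sycp1, Sycp3, Syce2, Stag3 and Hormad1), against 8.09% of the 27025 genes with a window. TCCCGC stood in 8 of the 9, all but Sycp2, against 22.05% of genes. CNCCTCAG stood in 2 of the 9, Sycp1 and Syce2, against 9.12%. The 9 genes' 11 windows held between 10 and 33 CG dinucleotides, with a median of 24, against a median of 7 over all 32851 windows. Among the general cohesin genes, whose products also act in mitosis, 8 had a window, and of these 1 held CACGTG, 5 TCCCGC and 2 CNCCTCAG. A match of letters is a description of the window and does not show binding. In the 6 windows printed here, 5′ to 3′ along the gene's own strand, capitals mark CACGTG, which reads the same on both strands, and TCCCGC on either strand (as GCGGGA on the other); in no window did these matches overlap. The first 4 hold both motifs, that of Smc1b only TCCCGC, and that of Sycp2 neither.
Sycp1 (chr3:102936051-102936350, minus strand): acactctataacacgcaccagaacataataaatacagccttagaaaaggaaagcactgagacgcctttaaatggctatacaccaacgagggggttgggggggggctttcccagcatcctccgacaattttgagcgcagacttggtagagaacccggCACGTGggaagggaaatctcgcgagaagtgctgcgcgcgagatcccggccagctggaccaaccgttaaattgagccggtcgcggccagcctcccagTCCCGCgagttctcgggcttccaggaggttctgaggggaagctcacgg
Sycp3 (chr10:88459337-88459636, plus strand): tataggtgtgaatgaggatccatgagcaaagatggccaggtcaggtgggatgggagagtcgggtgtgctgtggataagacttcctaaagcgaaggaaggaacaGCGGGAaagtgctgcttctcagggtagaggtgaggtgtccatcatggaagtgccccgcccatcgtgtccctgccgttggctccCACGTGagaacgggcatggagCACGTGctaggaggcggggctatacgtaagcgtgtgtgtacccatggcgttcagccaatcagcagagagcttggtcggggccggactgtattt
Stag3 (chr5:138280259-138280558, plus strand): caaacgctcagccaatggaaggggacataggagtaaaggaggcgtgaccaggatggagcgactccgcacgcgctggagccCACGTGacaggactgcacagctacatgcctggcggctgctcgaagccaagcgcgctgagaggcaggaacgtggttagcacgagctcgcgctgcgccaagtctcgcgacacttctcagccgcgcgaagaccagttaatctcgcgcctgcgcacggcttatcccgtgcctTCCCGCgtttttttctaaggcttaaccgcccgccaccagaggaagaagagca
Hormad1 (chr3:95559427-95559726, plus strand): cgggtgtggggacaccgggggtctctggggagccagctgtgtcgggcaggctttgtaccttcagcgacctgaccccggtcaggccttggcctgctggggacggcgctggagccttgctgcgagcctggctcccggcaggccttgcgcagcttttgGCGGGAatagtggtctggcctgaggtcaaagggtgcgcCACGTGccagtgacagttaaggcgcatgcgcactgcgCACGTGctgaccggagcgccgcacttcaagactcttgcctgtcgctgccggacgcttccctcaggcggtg
Smc1b (chr15:85131908-85132207, minus strand): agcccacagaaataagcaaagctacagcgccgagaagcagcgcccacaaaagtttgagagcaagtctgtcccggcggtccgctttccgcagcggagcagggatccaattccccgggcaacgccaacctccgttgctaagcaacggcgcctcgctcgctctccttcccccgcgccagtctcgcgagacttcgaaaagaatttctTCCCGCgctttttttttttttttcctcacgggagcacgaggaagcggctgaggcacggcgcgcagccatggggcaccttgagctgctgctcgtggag
Sycp2 (chr2:178407609-178407908, minus strand): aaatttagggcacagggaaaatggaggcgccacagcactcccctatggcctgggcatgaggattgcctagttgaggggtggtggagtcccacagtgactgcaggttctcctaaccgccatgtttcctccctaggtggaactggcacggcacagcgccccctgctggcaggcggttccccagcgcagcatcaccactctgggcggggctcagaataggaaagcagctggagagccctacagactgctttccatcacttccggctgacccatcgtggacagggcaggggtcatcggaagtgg
In Sycp3 the E-boxes began 64 and 43 bases before the start, and in Hormad1 57 and 20 bases before it. The single E-box began 94 bases before the start in Sycp1 and 170 in Stag3. The TCCCGC match of Smc1b began 47 bases before the start. A link between these motifs and the levels in cKO was not tested.

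Reads recovered from the FPKM (fragment counts divided by gene length and by sequencing depth) summed to between 15448191 and 18964743 per sample, and 3 reads on a gene of 1 kb corresponded to 0.158 to 0.194 FPKM. Intervals and floors from such counts cover counting error only. Srsf1 was at 82.1 to 89.1 FPKM in Ctrl and 45.1 to 51.6 in cKO, lower as the labels give it, and whole testis also holds cells in which this Cre is not active. The extraction text names another tissue, but 0 of 10 retina genes passed the filter on low values, their sum was 0.348 to 0.906 FPKM in all samples, and 2 of them were at 0 throughout, whereas testis markers were abundant. Ctrl 2 stood apart: the median ratio of Ctrl 2 to the mean of Ctrl 1 and 3 was 2.10 for the germ-cell markers, 1.12 for general cohesin genes and 0.744 for Sertoli-cell markers. Values without Ctrl 2 are therefore given beside those of the genes.

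In Ctrl testes the 10 genes ranged from Syce2 at 23.5 ± 6.11 FPKM (mean ± SD, n = 3) to Meiob at 0.236. FPKM are scaled by gene length, so levels can be set side by side. Sycp1 (10.7 FPKM), Smc1b (10.01), Sycp3 (8.79) and Stag3 (7.46) followed Syce2, then Sycp2 (4.41), Hormad1 (2.66), Rec8 (1.79) and Meioc (1.09). Only the step from Syce2 to Sycp1 and that from Meioc to Meiob were larger than the spread, with no overlap of the Ctrl ranges of these neighbours. From Sycp1 to Stag3, each gene was above the next in 2 of 3 Ctrl samples. The Ctrl means of 7 genes lay above the median of the 22046 protein-coding genes in the table, with Syce2 at the percentile 88.9, Sycp1 at 76.3, Hormad1 at 53.6 and Rec8 just below the median at 49.5. Transcripts of these genes were thus present in testes labelled 5 dpp, 5 of them at 5 FPKM or more. Markers of late spermatogenic cells were near the floor: 0 of 12 passed the filter, and their sum was 1.36 to 2.69 FPKM in Ctrl and 0.931 to 1.70 in cKO.

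**Figure D1:**
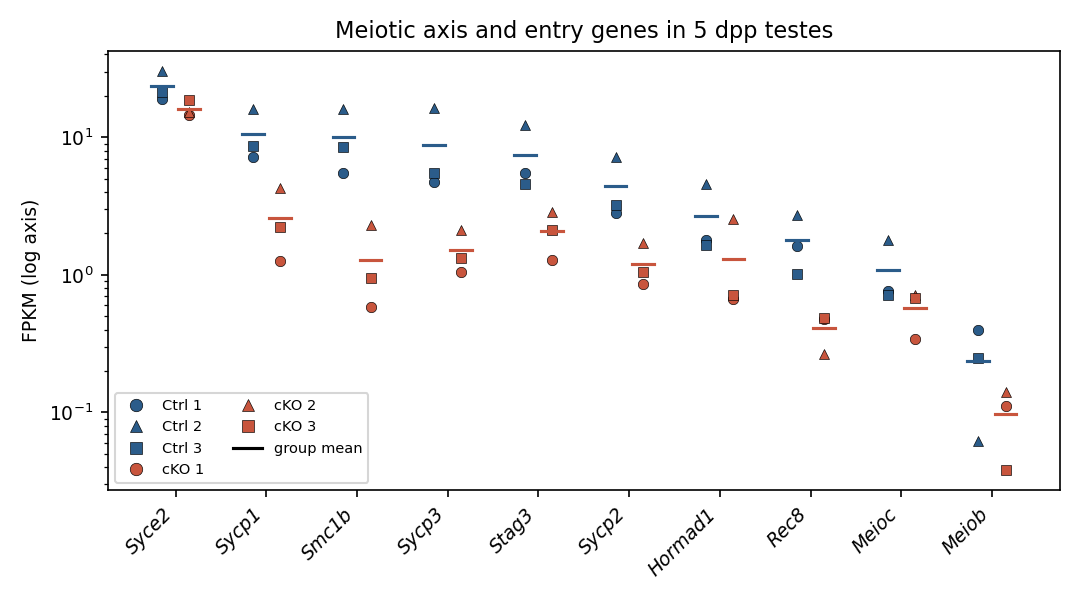
FPKM (log axis) of each of the 10 genes in every Ctrl and cKO sample, ordered by Ctrl mean, with points for samples and bars for group means. Ctrl 2 (blue triangles) is the highest Ctrl sample for 9 of the 10 genes. Ctrl and cKO points overlap only for Hormad1 and Meiob, and for Syce2 and Meioc the gap is within counting error.

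All 10 genes had a lower mean in cKO than in Ctrl, and for 8 of them every cKO sample lay under every Ctrl sample, a pattern seen in 12.8% of the 16206 genes tested. By limma on log2(FPKM + 1), 0 of the 9 genes above the filter passed an adjusted p of 0.05 (Benjamini-Hochberg over all genes tested), as did 0 of 16206 genes in either direction (0% called lower). The study's own DESeq2 test on gene counts, at an adjusted p of 0.05, reported many genes lower in cKO and fewer higher. The 0 thus holds for this test on FPKM and does not show that levels were equal. At an unadjusted p under 0.05, 7 of the 9 were lower, against 9.31% of all genes, and 1508 genes were lower and 1069 higher in all. With protein-coding genes only, 1.33% of 13204 genes were called lower, Sycp1 (adjusted p = 0.0489 in limma) and Smc1b (0.0295) among them. With limma voom on recovered reads, 0.37% were called lower and none of the 9. Because whole testes were sequenced, fewer germ cells and less RNA per germ cell cannot be told apart in any of these values.

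Of the 10 genes, Smc1b had the lowest cKO level relative to Ctrl. SMC1B replaces SMC1A in meiotic cohesin, and Smc1b (ENSMUSG00000022432, chr15:85064689-85131964, minus strand, GRCm38) had levels of 5.47, 16.1 and 8.45 FPKM in Ctrl 1 to 3, against 0.581, 2.31 and 0.944 FPKM in cKO 1 to 3. The groups did not overlap, and the cKO mean was 12.8% of the Ctrl mean. The log2 fold change was −2.23 (SE 0.395, adjusted p = 0.101 in limma) and −1.85 without Ctrl 2. On recovered reads, without the pseudocount of 1 FPKM, it was −3.06 (adjusted p = 0.0548 in voom).

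STAG3 is the meiosis-specific counterpart of STAG1 and STAG2. Stag3 (ENSMUSG00000036928, chr5:138280240-138312393, plus strand) measured 5.54, 12.3 and 4.57 FPKM in Ctrl 1 to 3, against 1.27, 2.88 and 2.12 FPKM in cKO 1 to 3, again without overlap. The mean went from 7.46 ± 4.19 to 2.09 ± 0.804 FPKM, a log2 fold change of −1.38 (SE 0.341, adjusted p = 0.153 in limma), or −0.999 without Ctrl 2.

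REC8 is a kleisin, a subunit that closes the cohesin ring, and is specific to meiosis. Rec8 (ENSMUSG00000002324, chr14:55618037-55625395, plus strand) measured 1.62, 2.74 and 1.01 FPKM in Ctrl 1 to 3, against 0.476, 0.265 and 0.485 FPKM in cKO 1 to 3. The groups did not overlap, and cKO 2, the highest cKO sample for 8 of the 10 genes, was the lowest here. These values rest on 279 reads over the Ctrl samples and 57 over the cKO samples. The log2 fold change was −0.94 (SE 0.231, adjusted p = 0.151 in limma) on the log2(FPKM + 1) scale and −2.07 on recovered reads in voom, since the pseudocount of 1 is large beside these levels. Without Ctrl 2 it was −0.71 on the first scale.

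The general counterparts of these subunits were more abundant and closer between groups. Rad21, the mitotic kleisin, averaged 109 ± 1.83 FPKM in Ctrl, against 99.0 ± 5.68 FPKM in cKO. For Smc1a the means were 31.3 ± 1.45 and 31.1 ± 1.88 FPKM (log2 fold change −0.01, adjusted p = 0.958 in limma). Stag1 was at 14.7 and 12.9 FPKM and Stag2 at 27.6 and 28.7. Rad21 and Stag1 were also lower in every cKO than in every Ctrl sample, whereas Smc1a and Stag2 overlapped between groups. In all, 4 of the 13 general cohesin genes were lower in this way, against 12.8% of the 16206 genes tested.

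Differences of log2(FPKM + 1) between a meiotic subunit and its counterpart were compared within samples, for 4 pairs. The difference in cKO minus that in Ctrl was −2.22 for Smc1b against Smc1a, −1.43 for Stag3 against Stag2, −1.20 for Stag3 against Stag1 and −0.80 for Rec8 against Rad21. Without Ctrl 2 these were −1.87, −1.11, −0.88 and −0.57. With a pseudocount of 0.1 in all 6 samples they were −2.93, −1.77, −1.54 and −1.67. The place of Rec8, a low gene, in this order thus depends on the pseudocount. In each pair the groups did not overlap. The exact permutation p was 0.1 (two-sided, 0.1 after adjustment over the 4 pairs). This is the smallest that 3 against 3 samples can give, so the design cannot reach 0.05. Germ-cell markers fell in cKO as well, by a list median of −1.35 in log2, with 18 of the 19 tested separated downward. Each pair sets a meiotic gene against a gene close to level in whole testis. The 4 differences therefore cannot tell meiotic cohesin from germ-cell genes at large. A change particular to meiotic cohesin was not tested by them. Of the 13 general cohesin genes, all above the filter, 0 passed the adjusted limma test, 3 were lower at an unadjusted p under 0.05, and the median log2 fold change was −0.14 (−0.08 without Ctrl 2), against 0.0027 over all genes tested.

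**Figure D2:**
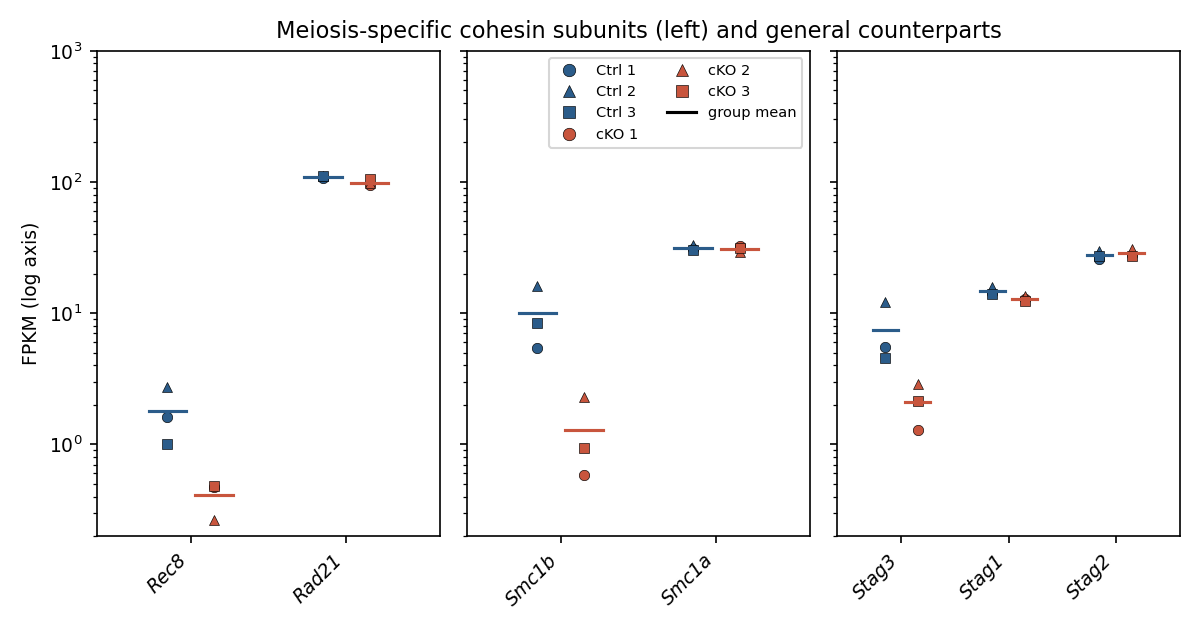
FPKM (log axis) of Rec8 and Rad21 (left), Smc1b and Smc1a (middle) and Stag3, Stag1 and Stag2 (right) in each sample, with points for samples and bars for group means. The meiosis-specific subunit of each panel is lower in all cKO than in all Ctrl samples, as are Rad21 and Stag1 by smaller margins, while Smc1a and Stag2 overlap between groups.

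Axis proteins came next. SYCP3 forms the fibres of the axial and lateral elements, and Sycp3 (ENSMUSG00000020059, chr10:88459569-88473236, plus strand) measured 4.69, 16.2 and 5.48 FPKM in Ctrl 1 to 3, against 1.06, 2.13 and 1.33 FPKM in cKO 1 to 3. No sample overlapped, but Ctrl 2 was 3.18 times the mean of the other Ctrl samples, the widest such gap among the 9 genes above the filter. The cKO mean was 17.1% of the Ctrl mean and 29.6% without Ctrl 2, with log2 fold changes of −1.80 (SE 0.407, adjusted p = 0.132 in limma) and −1.30. Of its 1264 exonic bases, 660 (52.2%) lie over exons of Chpt1 on the opposite strand in GENCODE mouse release M21. Whether reads were counted by strand is not given in the sources used here, and without strand such reads cannot be assigned, so the level of Sycp3 is uncertain. Chpt1, a choline phosphotransferase gene chosen for this overlap after the values were seen, averaged 8.40 ± 0.090 FPKM in Ctrl, against 9.12 ± 0.455 FPKM in cKO, the opposite direction to Sycp3.

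SYCP2 binds SYCP3 in the axial element. Sycp2 (ENSMUSG00000060445, chr2:178345293-178407685, minus strand) measured 2.83, 7.19 and 3.22 FPKM in Ctrl 1 to 3, against 0.863, 1.70 and 1.05 FPKM in cKO 1 to 3, without overlap. Its log2 fold change was −1.23 (SE 0.298, adjusted p = 0.149 in limma), and −0.89 without Ctrl 2.

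HORMAD1 is an axis protein that marks unsynapsed chromosomes. Hormad1 (ENSMUSG00000028109, chr3:95559677-95587671, plus strand) measured 1.79, 4.56 and 1.64 FPKM in Ctrl 1 to 3, against 0.662, 2.56 and 0.711 FPKM in cKO 1 to 3. Here the groups overlapped, as cKO 2 lay above Ctrl 1 and Ctrl 3. The log2 fold change was −0.67 (95% interval −1.57 to 0.23, adjusted p = 0.440 in limma), and −0.33 without Ctrl 2.

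The central region genes differed from each other. SYCP1 forms the transverse filaments that span the synaptonemal complex, and Sycp1 (ENSMUSG00000027855, chr3:102818499-102936100, minus strand) measured 7.18, 16.1 and 8.68 FPKM in Ctrl 1 to 3, against 1.27, 4.28 and 2.24 FPKM in cKO 1 to 3. The groups did not overlap, and the cKO mean was 24.4% of the Ctrl mean. Its log2 fold change was −1.71 (SE 0.365, adjusted p = 0.119 in limma), and −1.39 without Ctrl 2.

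SYCE2, a central element protein, was encoded by the most abundant of the 10 transcripts in every sample. Syce2 (ENSMUSG00000003824, chr8:84872111-84888221, plus strand) measured 19.0, 30.5 and 21.2 FPKM in Ctrl 1 to 3, against 14.5, 15.2 and 18.6 FPKM in cKO 1 to 3. The ranges were separate but close, at 18.6 in cKO 3 and 19.0 in Ctrl 1, and the cKO mean was 68.4% of the Ctrl mean (80.3% without Ctrl 2). The log2 fold change was −0.50 (SE 0.180, adjusted p = 0.262 in limma), and −0.31 without Ctrl 2.

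The remaining pair were the least abundant in Ctrl, while in cKO the mean of Rec8 (0.409 FPKM) was below that of Meioc (0.577). MEIOC, with YTHDC2, holds germ cells in the meiotic programme, and Meioc (ENSMUSG00000051455, chr11:102663716-102682237, plus strand) measured 0.763, 1.79 and 0.718 FPKM in Ctrl 1 to 3, against 0.344, 0.713 and 0.673 FPKM in cKO 1 to 3. The groups were separated by less than 0.01 FPKM, between Ctrl 3 and cKO 2. The log2 fold change was −0.38 (95% interval −0.90 to 0.14, adjusted p = 0.450 in limma) and −0.15 without Ctrl 2.

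MEIOB binds single-stranded DNA in meiotic recombination. Meiob (ENSMUSG00000024155, chr17:24804382-24839787, plus strand) was under the filter, with 11, 2 and 7 reads in Ctrl and 3, 4 and 1 in cKO, or 0.399, 0.0617 and 0.248 FPKM against 0.112, 0.141 and 0.0380. It was the 1 gene of the 10 for which Ctrl 2 was the lowest Ctrl sample, although the exact Poisson 95% intervals of Ctrl 1 (0.199 to 0.714 FPKM) and Ctrl 2 (0.00747 to 0.223) overlapped. The groups overlapped, and a difference was not detectable at this depth. Its coordinates in the table are not those of release M21.

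**Figure D3:**
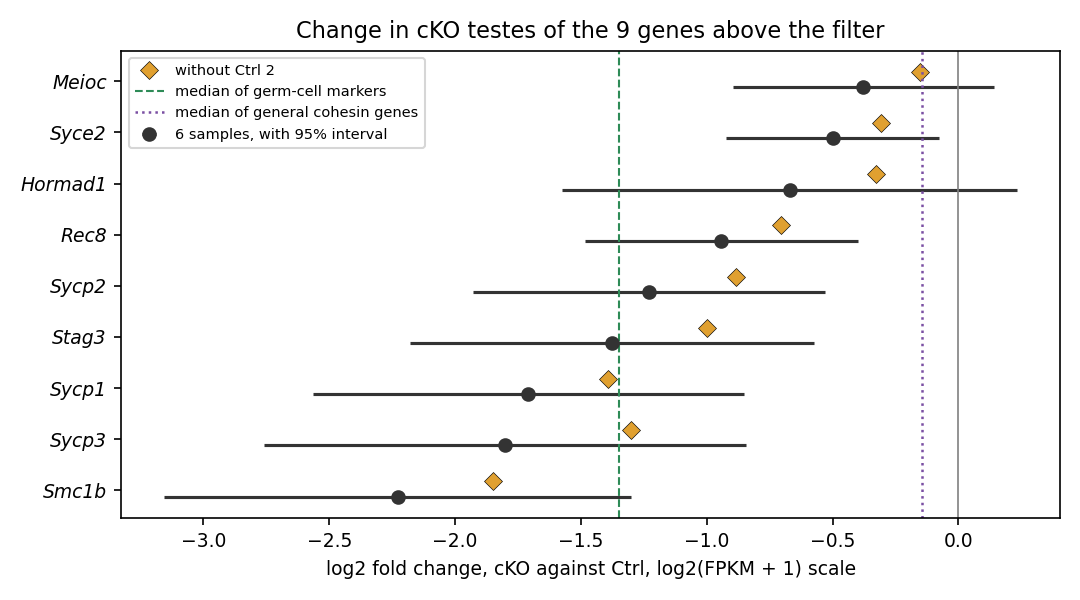
Log2 fold change of cKO against Ctrl on the log2(FPKM + 1) scale for the 9 genes above the filter, with circles and 95% intervals from all 6 samples in limma diamonds for values without Ctrl 2, and vertical lines at the medians of the germ-cell markers (dashed) and general cohesin genes (dotted). Smc1b lies furthest below 0 at −2.23, the intervals of Hormad1 and Meioc cross 0, and leaving out Ctrl 2 brings all 9 values nearer to 0.

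The germ-cell markers moved with these genes. Of 20 markers, 19 passed the filter and 0 passed the adjusted limma test. At an unadjusted p under 0.05 in limma, 18 were lower, against 9.31% of all genes tested. In 18 every cKO sample lay under every Ctrl sample, against 12.8%. With protein-coding genes only, 8 markers were called lower, against 1.33% of genes, and with voom 5, against 0.37%. The same shares over all genes apply to such counts in the lists that follow. Their median log2 fold change was −1.35 (−0.97 without Ctrl 2), and that of the 9 genes −1.23 (−0.89 without Ctrl 2). The markers summed to 248 to 526 FPKM in Ctrl and 85.1 to 120 in cKO. The excess in Ctrl 2 was of like size, with a median ratio to the other Ctrl samples of 2.38 for the 9 genes and 2.10 for the markers. Their part in the lower levels of the 10 genes was not tested.

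**Figure D4:**
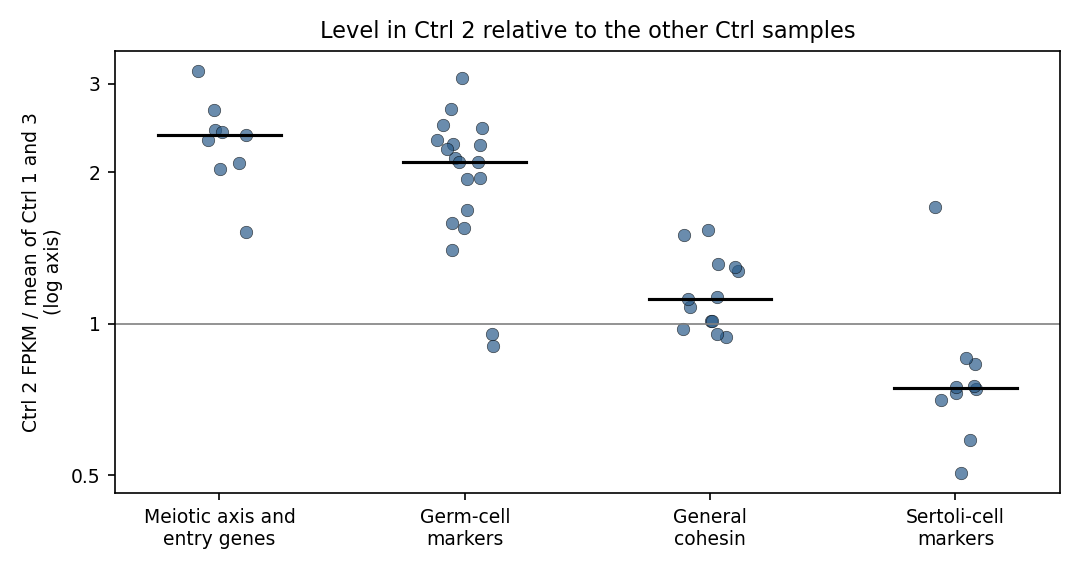
Ratio of FPKM in Ctrl 2 to the mean of Ctrl 1 and Ctrl 3 (log axis), with a point for each gene and a bar for the median of each list. The meiotic genes (median 2.38) and germ-cell markers (2.10) lie mostly above 1, general cohesin genes near 1 (1.12) and Sertoli-cell markers mostly below 1 (0.744).

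Levels were therefore also set against Ddx4, the germ-cell RNA helicase gene whose promoter drives the Cre, in the same sample. Ddx4 itself had 26.3, 65.1 and 29.9 FPKM in Ctrl 1 to 3, against 8.01, 15.8 and 9.43 FPKM in cKO 1 to 3. The share of Sycp2 relative to Ddx4 stayed within a narrow range in all 6 samples, at 10.8%, 11.0% and 10.8% in Ctrl and 10.8%, 10.7% and 11.2% in cKO, although its own level spanned 0.863 to 7.19 FPKM. Smc1b was lower relative to Ddx4, at 20.8%, 24.8% and 28.2% in Ctrl and 7.25%, 14.6% and 10.01% in cKO, and Sycp3 was at 17.9%, 24.9% and 18.3% against 13.2%, 13.5% and 14.1%. In both genes the groups did not overlap, a pattern of lower shares seen in 0.518% of the 16206 genes tested. Since Ddx4 itself was lower in cKO, a gene level between groups gains share. The 0.518% therefore says little about germ-cell genes. The pattern was not particular to these 2 among genes of germ cells. The germ-cell markers had a median cKO level of 29.3% of Ctrl, near that of Ddx4 (27.4%), with some above and some below. Dazl (19.5%) and Mael (22.0%) lay below it, as did the meiotic genes Syce1 (15.3%) and Tex11 (15.2%). On the log2(FPKM + 1) scale, however, the difference of Sycp3 against Ddx4 alone was −0.09 (exact permutation p = 0.6), and that of Smc1b −0.51 (exact permutation p = 0.1). That of Sycp2 was 0.49 (exact permutation p = 0.1), so its narrow range of shares holds for FPKM and not for this scale.

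The other genes were not separated downward. Syce2 was at 72.2%, 46.8% and 70.7% of Ddx4 in Ctrl and 181%, 96.4% and 197% in cKO, and Meioc at 2.90%, 2.74% and 2.40% against 4.30%, 4.51% and 7.14%. The share of Hormad1 was 5.47% to 6.999% in Ctrl and 7.54% to 16.2% in cKO. In these 3 genes every cKO share was above every Ctrl share, as in 89.4% of all genes tested. Ddx4 itself was at 27.4% of its Ctrl mean in cKO, so a gene at an equal level in both groups gains share. For Sycp1 (24.7% to 29.0% and 15.8% to 27.0%), Stag3 (15.3% to 21.1% and 15.9% to 22.5%) and Rec8 (3.36% to 6.17% and 1.68% to 5.95%) the shares overlapped between groups, although 2 of the 3 cKO shares of Sycp1 lay under every Ctrl share.

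**Figure D5:**
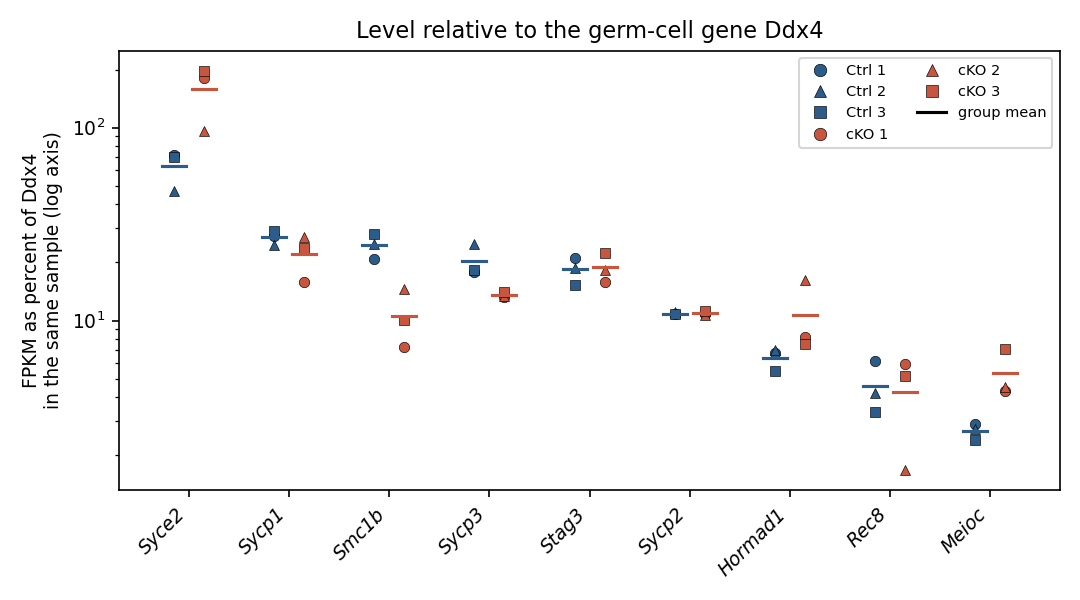
FPKM of each of 9 genes as a percent of the FPKM of Ddx4 in the same sample (log axis), with points for samples and bars for group means. Sycp2 lies between 10.7% and 11.2% in all samples, Smc1b and Sycp3 are lower in all cKO samples, and Syce2, Hormad1 and Meioc are higher in all cKO samples, as are 89.4% of all genes tested.

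A test of each gene against the mean log2(FPKM + 1) of the 19 germ-cell markers was made in all 10 genes by exact permutation (two-sided), with p-values adjusted over the 10. The markers' mean was lower by 1.25 in cKO on this scale. Relative to it, Smc1b differed by −0.98 and Sycp3 by −0.55, and Syce2 by 0.75 (each exact permutation p = 0.1, the smallest possible, and 0.167 after adjustment). Without Ctrl 2 these differences were −0.88, −0.32 and 0.67. For Sycp1 the difference was −0.46 (exact p = 0.2), for Stag3 −0.12 (exact p = 0.5) and for Sycp2 0.02 (exact p = 0.9). Rec8 (0.31), Hormad1 (0.58), Meioc (0.88) and Meiob (1.09) are low genes, and the pseudocount of 1 limits how far they can go down. The size of these values therefore depends on it. With a pseudocount of 0.1 they were −0.29, 0.46, 0.78 and 0.87 (exact permutation p = 0.6, 0.5, 0.1 and 0.5). Only that of Rec8 reversed. None of the 10 could pass 0.05 in this design.

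Stra8, the retinoic acid target that starts meiotic transcription with MEIOSIN, measured 10.1, 55.8 and 12.8 FPKM in Ctrl 1 to 3, against 0.388, 2.82 and 2.33 FPKM in cKO 1 to 3. It had a wider gap than any of the 10 genes, at 7.04% of the Ctrl mean, with no overlap of groups (log2 fold change −2.98, adjusted p = 0.124 in limma). Without Ctrl 2 it was −2.25. Ctrl 2 was 4.86 times the other Ctrl samples. The paper reported Stra8 as lower in cKO testes at this age by RNA-seq and by RT-qPCR. Other entry genes were closer between groups. Meiosin, the partner of Stra8, averaged 0.819 ± 0.158 FPKM in Ctrl, against 0.751 ± 0.173 FPKM in cKO, and Ythdc2, the RNA helicase that works with MEIOC, at 3.02 ± 0.362 and 3.03 ± 0.371. Rbm46, which encodes an RNA-binding protein needed for meiotic entry, was at 11.5 and 4.06 FPKM. Of the 5 entry genes, 4 passed the filter, 0 passed the adjusted limma test, 2 were lower at an unadjusted p under 0.05, and the median log2 fold change was −0.65 (−0.49 without Ctrl 2). With protein-coding genes only 1 was called lower, and with voom 0.

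Of 10 other synaptonemal complex and axis genes, 9 passed the filter, 0 passed the adjusted limma test, 7 were lower at an unadjusted p under 0.05, and the median log2 fold change was −0.77 (−0.54 without Ctrl 2). With protein-coding genes only and with voom, 2 were called lower in each fit. Syce1, a central element gene, averaged 13.3 ± 6.40 FPKM in Ctrl, against 2.03 ± 0.712 FPKM in cKO (adjusted p = 0.0760 in limma), a larger gap than that of Syce2, and Syce3 at 6.93 and 4.30. Trip13, an ATPase that removes HORMA proteins from the axis and also works in mitosis, overlapped between groups, at 13.4 and 10.1 FPKM.

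Of 20 recombination genes, 14 passed the filter, 0 passed the adjusted limma test, 7 were lower at an unadjusted p under 0.05, and the median was −0.49, or −0.24 without Ctrl 2. With protein-coding genes only 3 were called lower, and with voom 1. Tex11, an X-linked crossover gene, was at 9.96 ± 5.60 and 1.51 ± 0.532 FPKM, whereas Mnd1 (14.2 and 12.4) and Psmc3ip (13.5 and 10.9), partners in strand exchange, were nearer to level. Of the 5 genes for telomere attachment only 2 passed, with 0 lower at an unadjusted p under 0.05 in limma. Sun1, a nuclear envelope gene that somatic cells also use, was at 13.0 and 13.1 FPKM.

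Genes of the repressors were measured in the same samples. All 12 passed the filter, 0 passed the adjusted limma test, 1 was lower and 1 higher at an unadjusted p under 0.05, and the median was −0.13 (−0.06 without Ctrl 2). In 3 of the 12 every cKO sample lay under every Ctrl sample and in 3 above, against 2071 and 1677 of the 16206 genes tested. Log2 fold changes ran from −0.52 for Dnmt3b to 0.40 for Ring1, both without overlap. The levels of Uhrf1 and Dnmt1, which maintain DNA methylation, were 34.2 and 28.1 FPKM and 24.5 and 20.9 FPKM, and Rnf2, a Polycomb ubiquitin ligase, was at 33.5 and 36.6.

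By the medians of their lists, somatic markers moved less than germ-cell markers, and some lists moved in the opposite direction. The median log2 fold change was −0.04 for 10 Sertoli-cell genes (−0.18 without Ctrl 2), 0.47 for 6 Leydig-cell genes, −0.29 for 5 peritubular, 0.22 for 5 endothelial and 0.06 for 5 macrophage genes (0.04 without Ctrl 2), with 0 past the adjusted limma test. With protein-coding genes only, 1 Sertoli-cell gene, Cldn11 (49.5% of Ctrl, adjusted p = 0.0487 in limma), was called lower. So was 1 peritubular gene, Myh11 (64.3%, adjusted p = 0.0489 in limma). With voom, 0 genes of these lists were called. Single Sertoli-cell genes went both ways, as Amh was at 164% of Ctrl, also without overlap. Red-cell genes, at 438 to 697 FPKM in sum in Ctrl and 526 to 1479 in cKO, had a median of 0.69. Sertoli-cell genes summed to 1680 to 2530 FPKM in Ctrl and 2307 to 2644 in cKO, and Leydig-cell genes to 363 to 544 and 586 to 682. The part of these cell types in the lower levels of the 10 genes was not tested.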

How the data were processed

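RNA of whole testes was sequenced from polyadenylated molecules as paired-end reads. Per the study's methods, the authors aligned reads with HISAT2 (version 2.0.5 in the submitters' processing notes, build mm10), used featureCounts for gene counts and DESeq2 for their own test. The values deposited by the authors were FPKM per gene. The annotation release and the strand setting of the counting are not given in the sources used here.

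Reads per gene were recovered as whole numbers from FPKM and gene length (100% within 0.01). The 16206 genes whose mean reached 0.5 FPKM were tested on log2(FPKM + 1) values (limma 3.58.1, R 4.3.3), a scale that understates changes of low genes, with no covariate, empirical Bayes moderation with a trend, two-sided p-values, Benjamini-Hochberg adjustment and a threshold of 0.05. The planned count test was replaced by this one, since the unit is FPKM. Single differences were compared by exact permutation, also two-sided. The tests were tried on simulated data.

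Named were the 10 genes, the 3 genes with the highest Ctrl mean of other lists where a result turns on them, general cohesin counterparts, Stra8, Meiosin and Ythdc2. The 10 genes and all lists were chosen with earlier results of these data known. Groups came from the sample labels, and the study's methods call the samples of a group biological replicates. The Ddx4 comparison, pseudocount, filter, scaling, gene type, block, voom and left-out samples were the alternatives.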

Additional observations from a re-analysis of the deposited data

How the results depend on the processing

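Over 15 alternative fits, 141 values of Srsf1 and the 9 genes above the filter kept their direction and their side of the threshold, and 8 newly passed it (Srsf1 in 4, Sycp1 and Smc1b in 2 each). Those fits were TPM, the replicate block, protein-coding genes only and limma voom. Against 0 genes in either direction, TPM gave 1 lower and 4 higher, no mean-variance trend 1 higher, protein-coding genes only 176 lower and 37 higher with 2 of the 10 genes, and voom 60 lower and 19 higher. Leaving out a sample gave 0 to 15 lower (15 without Ctrl 2) and 0 to 3 higher. With the replicate number as a block, 84 genes were lower and 14 higher, among them Sycp1 and Smc1b (2 of the 10, adjusted p = 0.0158 in limma for both). Departures of same-numbered samples from their own group means, taken across genes, correlated at 0.059, 0.025 and 0.104. The numbers were therefore not taken to pair the samples. Of the 10 genes, however, Ctrl 2 was the highest Ctrl sample for 9 and cKO 2 the highest cKO sample for 8. Correlations across genes thus do not settle whether the numbers pair the samples for these genes, and this was not tested. Of 122 differences against markers or counterparts, 8 reversed, in Sycp1, Sycp2, Stag3 and Rec8. Against Ddx4 alone, Sycp1 was at 0.0057 and Stag3 at 0.34, Sycp3 at −0.087 instead of −0.55, and Sycp2 at 0.49 instead of 0.02. With a pseudocount of 0.1, Sycp2 was at −0.19 and Rec8 at −0.29, and with TPM at −0.11 and −0.0011. Leaving out a sample moved Sycp2 between −0.060 and 0.090. The cause of these shifts was not tested. The planned edgeR and DESeq2 fits on recovered reads were not run. With 3 samples per group, exact p-values cannot go below 0.1, and depth limits Meiob (28 reads in all).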
